A study of Mus musculus with 6 samples.

Results

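The nuclear-encoded respiratory chain genes are the genes in the nucleus that supply most subunits of the 4 electron transport complexes and of ATP synthase. They were taken from the count tables by symbol: every name that begins with Nduf, Uqcr, Cox4, Cox5, Cox6, Cox7, Cox8 or Atp5, together with Sdha, Sdhb, Sdhc, Sdhd and Cyc1, without pseudogenes. This gave 96 genes among the 27179 records in the tables. RNA was sequenced from neural stem cells derived from male E14.5 mouse brains of a C57BL/6 x FVB/N background, with 3 libraries from Smchd1 wild type cultures and 3 from cultures homozygous for the MommeD1 allele of Smchd1 (Smchd1 null). All cultures were grown as adherent cells with EGF and bFGF at 20 ng/ml each, and nothing in the labels says whether the libraries of a group came from separate embryos, so p-values measure only the spread between these libraries. The comparison asks how the RNA of these genes differs between cells with and without Smchd1. Smchd1 belongs to the wider SMC group of proteins and helps to silence the inactive X chromosome and several gene clusters.

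Complex I (NADH dehydrogenase), complex II (succinate dehydrogenase), complex III (cytochrome bc1) and complex IV (cytochrome c oxidase) pass electrons from NADH and succinate to oxygen, and complexes I, III and IV pump protons across the inner mitochondrial membrane. Complex V, ATP synthase, uses that proton gradient to make ATP. A small set of core subunits is encoded in mitochondrial DNA, while the others are made from nuclear genes and imported. Several subunits of complex IV exist as isoforms, 1 general and others known from muscle, testis or cells short of oxygen. Proliferating neural stem cells are known for a strong reliance on glycolysis, and respiration is known to increase as they differentiate.

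Levels are given as CPM, the usual read counts scaled to library depth, here with TMM factors. Smchd1 itself was measured first, as a check of the labels. Its level was 271, 260 and 232 CPM in wild type and 30.3, 31.1 and 27.9 CPM in null, a log2 fold change of -3.10 ± 0.08 (SE; edgeR quasi-likelihood test, Benjamini-Hochberg adjusted p = 1.09e-06). The gene lies on chromosome 17, from 71344489 to 71475366 in GRCm38. The libraries held 18608881 to 23253367 counts. Wild type replicate 3 stood apart, since 1 gene record without a symbol took 44.6% of its counts against 2.11% to 5.90% elsewhere. The members made up 0.486% of all counts in that library and 1.03% to 1.14% in the other libraries. After scaling, its effective depth was 10078211 counts, against 21284509 to 25800656 for the rest. The neural stem cell marker list was detected throughout, with a summed level of 6485 to 6769 CPM in wild type and 6445 to 6591 CPM in null.

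No respiratory chain gene passed the test between null and wild type. Of the 96 members, 89 had enough counts to be tested, and edgeR called 0 of them at an adjusted p below 0.05, against 0.577% of the 14207 genes tested overall (82 genes; 0.507% higher and 0.0704% lower in null). DESeq2 also called 0 members, against 2.83% of the genes to which it gave an adjusted p. The smallest adjusted p among the members was 0.203, for Cox7a2. An unadjusted p below 0.05 was reached by 9 of the 89 members (10.1%), 3 higher and 6 lower in null, against 18.6% of all tested genes (9.54% higher and 9.05% lower). The members' differences were small: the median size of the log2 fold change, without regard to sign, was 0.09 over the members and 0.15 over all tested genes. For 85 of the 89 members (95.5%) the 95% interval of the fold change lay wholly within 1.5-fold in either direction, against 65.9% of all tested genes. The 1.5-fold bound was set after the values were seen. The exceptions were Ndufab1, Ndufb4, Cox7a1 and Cox7a2, whose mean level was under 12 CPM in both groups. The median SE was 0.08 over the members and 0.11 over all tested genes. These comparisons with all tested genes were not matched for level or SE.

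The fold changes were not spread evenly around zero. Of the 89 tested members, 74 (83.1%) had a log2 fold change below zero, against 49.7% of all tested genes, and the members' median was -0.06 (0.957-fold), against 0.00 for all. In 16 members (18.0%) every null library lay below every wild type library, against 10.6% of all tested genes, and in 3 members (3.37%) every null library lay above, against 11.4%. Summed over all members, the level was 9948, 9949 and 9409 CPM in wild type and 8968, 9302 and 9574 CPM in null. The groups thus overlapped, with null replicate 3 above wild type replicate 3 but below wild type replicates 1 and 2. The sums were 9768 ± 311 CPM in wild type and at 9281 ± 304 CPM in null (SD, n = 3), a ratio of 0.950. In bulk RNA, a lower level per cell and a smaller share of cells with a high level cannot be told apart.

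**Figure D1:**
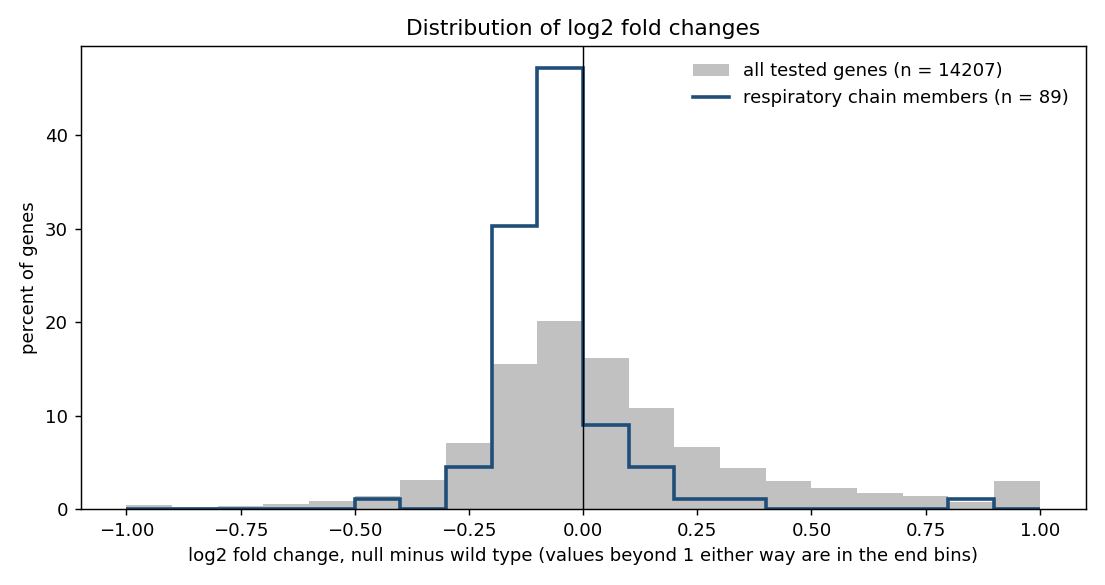
Percent of genes (vertical axis) in each bin of log2 fold change, null minus wild type (horizontal axis), for all 14207 tested genes (grey) and the 89 tested respiratory chain members (blue outline). The members form a narrower peak just below zero, with a median of -0.06.

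The shift below zero was not equally present in the 3 null libraries. Null replicate 1 was the lowest of the 3 in 67 of 89 members (75.3%), against 33.8% of all tested genes, and null replicate 3 was the highest in 61 members (68.5%), against 34.6%. Relative to each gene's mean over all 6 libraries, the members' median stood at -0.09 on the log2 scale in null replicate 1, -0.02 in null replicate 2 and 0.02 in null replicate 3. In the wild type libraries it was 0.03, 0.06 and 0.02. The range over the null libraries was thus wider than that over the wild type libraries. The members' median log2 fold change was -0.03 without null replicate 1 and -0.10 without null replicate 3. These counts of library order were added after the values were seen.

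Complex I contributed 38 genes, among them Ndufb4b and Ndufb4c, which are copies of the subunit gene Ndufb4. All 38 were tested, and 34 had a log2 fold change below zero (median -0.07). Their summed level was 2298, 2317 and 2245 CPM in wild type and at 2087, 2183 and 2278 CPM in null. The groups overlapped because null replicate 3 lay above wild type replicate 3, though below wild type replicates 1 and 2. The ratio of the means was 0.954. Ndufv1, the subunit with the NADH binding site, had a log2 fold change of -0.01 ± 0.07 (SE), and Ndufs1, the largest subunit, had 0.00 ± 0.06. The lowest log2 fold changes were those of accessory subunits, which surround the catalytic core.

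Ndufa3, an accessory subunit of the membrane arm (chromosome 7, 3617347 to 3620165), was measured at 42.8, 39.4 and 42.3 CPM in wild type and at 35.9, 34.6 and 38.2 CPM in null. All 3 null values lay below all 3 wild type values, with a log2 fold change of -0.19 ± 0.07 (SE; edgeR adjusted p = 0.225). Ndufs6, an accessory subunit of the peripheral arm (chromosome 13, 73319876 to 73328482), was measured at 21.5, 19.4 and 19.5 CPM in wild type and at 15.9, 17.7 and 17.7 CPM in null. Its groups did not overlap either, and its log2 fold change was -0.24 ± 0.09 (edgeR adjusted p = 0.228). Ndufab1 ran the other way. It encodes the mitochondrial acyl carrier protein, which is a complex I subunit and also serves fatty acid and lipoic acid synthesis (chromosome 7, 122086815 to 122101848). Its level was 7.17, 9.17 and 10.2 CPM in wild type and at 12.2, 10.9 and 10.8 CPM in null, without overlap, a log2 fold change of 0.37 ± 0.15 (edgeR adjusted p = 0.239).

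The 8 Ndufaf genes encode assembly factors, which help to build complex I and are not part of the finished enzyme. Only 2 of the 8 had a log2 fold change below zero, and their median was 0.08, but none passed edgeR's test and 1 had an unadjusted p below 0.05. That gene was Ndufaf1, a factor for the membrane arm, at 12.7, 13.8 and 11.5 CPM in wild type and at 15.3, 16.2 and 14.1 CPM in null, a log2 fold change of 0.26 ± 0.11 (edgeR adjusted p = 0.256). Ndufaf8 was the other assembly factor whose null values all lay above wild type, and Ndufaf6 was the 1 whose null values all lay below. Over all tested genes these shares were 11.4% above and 10.6% below. The summed level of the 8 genes was 147, 167 and 144 CPM in wild type and at 159, 163 and 162 CPM in null. Wild type replicate 2 exceeded every null library, so the sums overlapped.

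Complex II is the 1 complex whose subunits are all nuclear-encoded. Its 4 genes sat closest together, with log2 fold changes from -0.06 to -0.01. Sdha, the flavoprotein that oxidises succinate, was measured at 274, 266 and 281 CPM in wild type and at 271, 261 and 258 CPM in null. Sdhb, the iron-sulfur subunit, was measured at 120, 122 and 125 CPM in wild type and at 113.6, 129 and 122 CPM in null. The groups overlapped for both genes, and likewise for the membrane anchors Sdhc and Sdhd. The 95% interval of the log2 fold change ran from -0.19 to 0.09 for Sdha and from -0.16 to 0.14 for Sdhb.

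Of the 9 complex III genes 8 were tested, and 7 of them had a log2 fold change below zero (median -0.04). Cyc1, the cytochrome c1 that hands electrons to cytochrome c, was the exception at 0.04 ± 0.06 (SE), and the core protein Uqcrc1 stood at 0.00 ± 0.07. Uqcrb, a small subunit near the ubiquinone site (chromosome 13, 66900576 to 66905350), was measured at 43.4, 48.8 and 43.3 CPM in wild type and at 41.3, 38.2 and 40.3 CPM in null. Its groups did not overlap, with a log2 fold change of -0.18 ± 0.08 (edgeR adjusted p = 0.260). Uqcrh, the hinge protein that binds cytochrome c1 (chromosome 4, 116066965 to 116075070), was measured at 118, 122 and 111 CPM in wild type and at 102, 108 and 109 CPM in null. It too did not overlap, with a log2 fold change of -0.14 ± 0.06 (edgeR adjusted p = 0.283). The sum over the complex was 974 ± 8.41 CPM in wild type and at 946 ± 30.4 CPM in null (SD, n = 3).

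With TMM scaling, complex IV was the 1 complex whose summed level did not overlap between the groups; with RLE scaling complex II did not overlap either, at 524 to 539 CPM in wild type against 507 to 523 CPM in null. It was 1450, 1474 and 1471 CPM in wild type and at 1281, 1387 and 1386 CPM in null, a ratio of 0.923. Of its 14 tested genes 11 had a log2 fold change below zero, with a median of -0.11. In 4 of them (28.6%), Cox4i1, Cox6b1, Cox7a2 and Cox8a, every null library lay below every wild type library, against 10.6% of all tested genes. Cox4i1, the general isoform of the regulatory subunit 4 (chromosome 8, 120668225 to 120674209), was measured at 295, 285 and 278 CPM in wild type and at 245, 265 and 267 CPM in null, a log2 fold change of -0.14 ± 0.07 (SE; edgeR adjusted p = 0.283). Cox5a, which sits beside it on the matrix side, gave 0.00 ± 0.08.

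**Figure D2:**
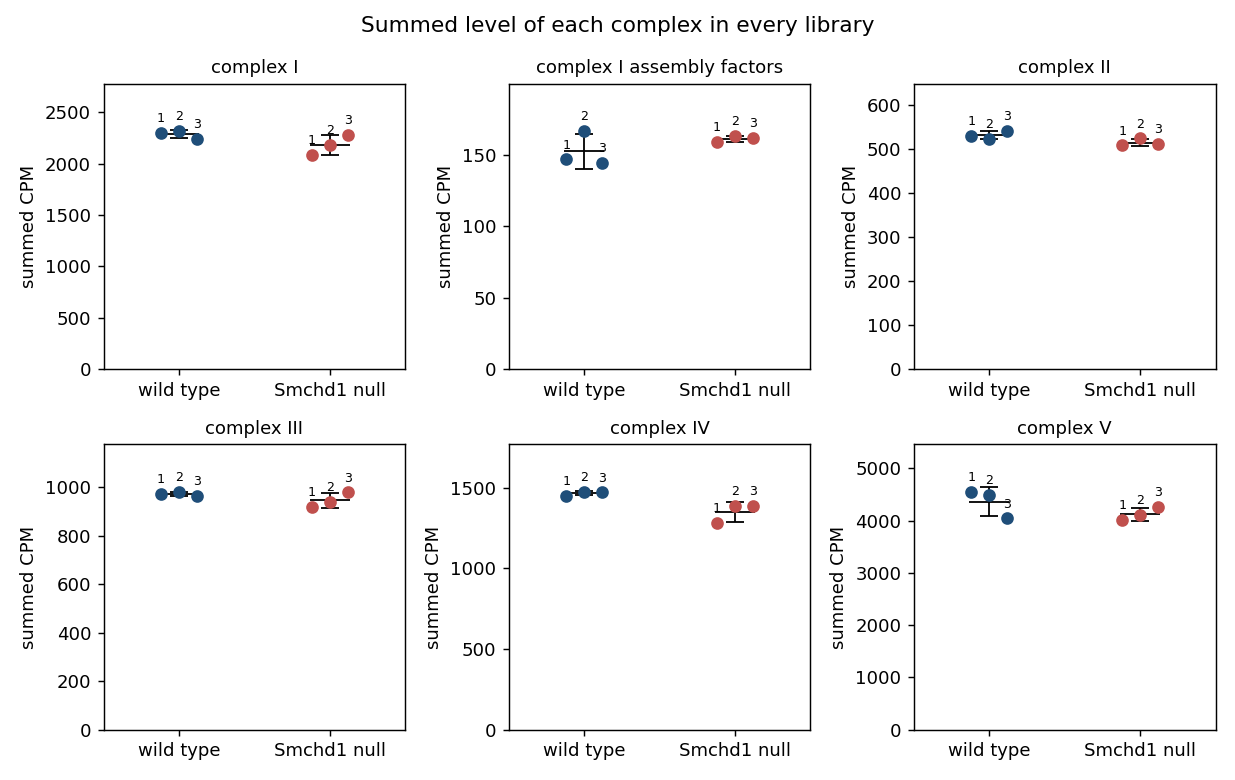
Summed CPM (vertical axes, each from 0) of the genes of each complex in the 3 wild type (blue) and 3 Smchd1 null (red) libraries, numbered by replicate, with the mean and SD as black bars. With this TMM scaling complex IV is the panel where the groups are separate, at 1450 to 1474 CPM in wild type and 1281 to 1387 CPM in null.

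The largest difference in each direction among the 89 tested members was found in the subunit 7a isoforms of complex IV. Cox7a2 (chromosome 9, 79755241 to 79771422), the isoform used in most tissues, was measured at 8.57, 9.34 and 10.3 CPM in wild type and at 5.64, 6.47 and 8.02 CPM in null. All null values lay below the wild type values, with a log2 fold change of -0.48 ± 0.16 (SE) and an edgeR adjusted p of 0.203. Cox7a1 (chromosome 7, 30184171 to 30186030), the isoform of heart and skeletal muscle, was measured at 0.581, 0.853 and 0.992 CPM in wild type and at 1.36, 1.87 and 0.981 CPM in null. These values overlapped and rested on 10 to 40 counts per library, with a log2 fold change of 0.85 ± 0.33 (edgeR adjusted p = 0.233). Cox7a2l, a related protein that joins complexes III and IV into supercomplexes, was much more abundant, at 132 ± 6.46 CPM in wild type and at 119 ± 6.48 CPM in null (SD, n = 3; log2 fold change -0.15, edgeR adjusted p = 0.283).

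Complex V held the most abundant members. Atp5b, the catalytic beta subunit, was measured at 1655, 1621 and 1397 CPM in wild type and at 1432, 1447 and 1522 CPM in null, with overlap and a log2 fold change of -0.09 ± 0.09 (SE). Of the 17 genes 16 had a log2 fold change below zero (median -0.09), none reached an unadjusted p below 0.05 and none was called by edgeR. Atp5md, a small subunit at the dimer interface, had the lowest value, -0.18 ± 0.10. The sum was 4360 ± 276 CPM in wild type and at 4125 ± 124 CPM in null (SD, n = 3). Wild type replicate 3, at 4044 CPM, lay below null replicates 2 and 3.

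**Figure D3:**
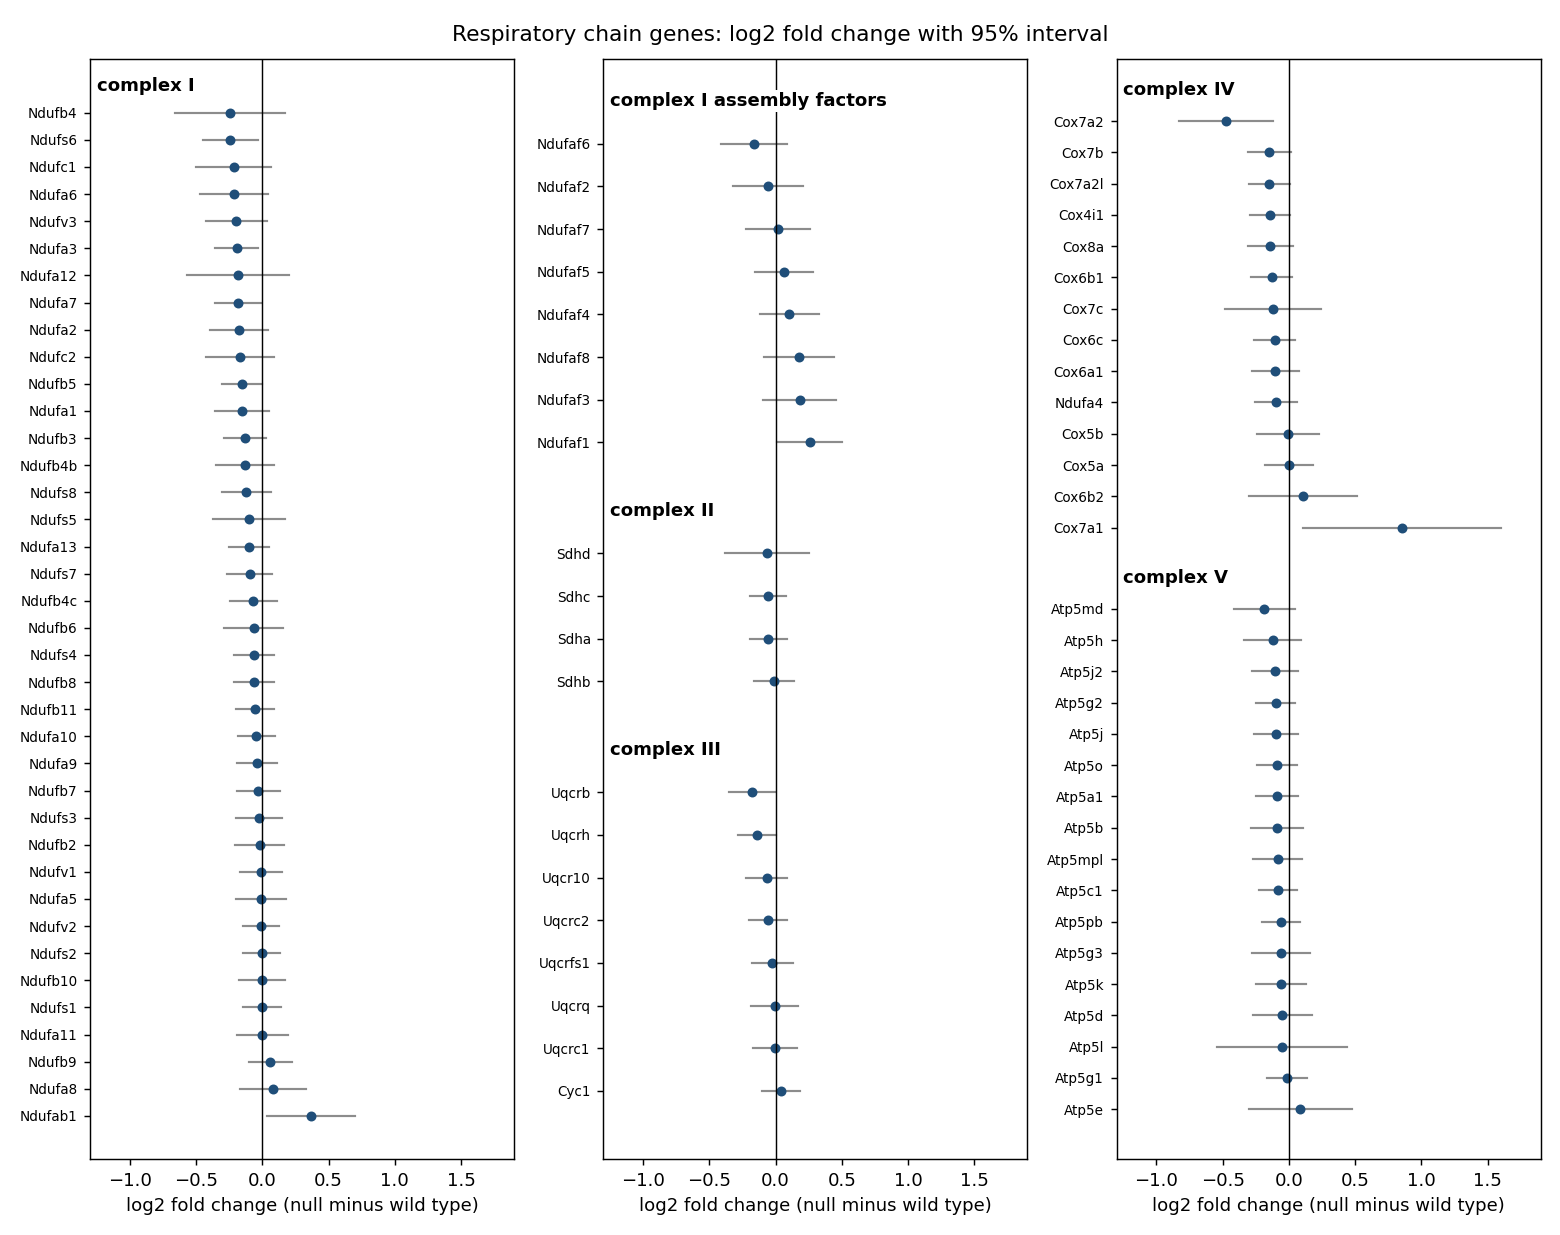
Log2 fold change, null minus wild type (horizontal axis), of the 89 tested members by complex, with points for the edgeR estimate and lines for the 95% interval. Most points lie slightly left of zero, the assembly factors lie mostly right of it, and Cox7a2 (-0.48) and Cox7a1 (0.85) lie farthest out.

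Levels between genes were compared per length, as CPM divided by the deposited gene length in kilobases (RPKM). The median over the tested members was 83.6 RPKM in wild type and 79.4 RPKM in null, against 7.98 RPKM for all tested genes in wild type. In wild type 85 of the 89 stood above that all-gene median and 37 reached at least 100 RPKM. The median was 62.2 RPKM for complex I, 10.6 for its assembly factors, 102 for complex II, 115 for complex III, 154 for complex IV and 148 for complex V in wild type. The highest levels were those of Atp5b (829 ± 74.6 RPKM) and Atp5a1 (543 ± 20.6 RPKM), the subunits that form the catalytic head of ATP synthase, and of Cox4i1 (421 ± 12.6 RPKM; SD, n = 3). The order of the genes by level was nearly the same in null, with a Spearman correlation of 0.997 across the 89 genes, which share these libraries and are not independent.

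**Figure D4:**
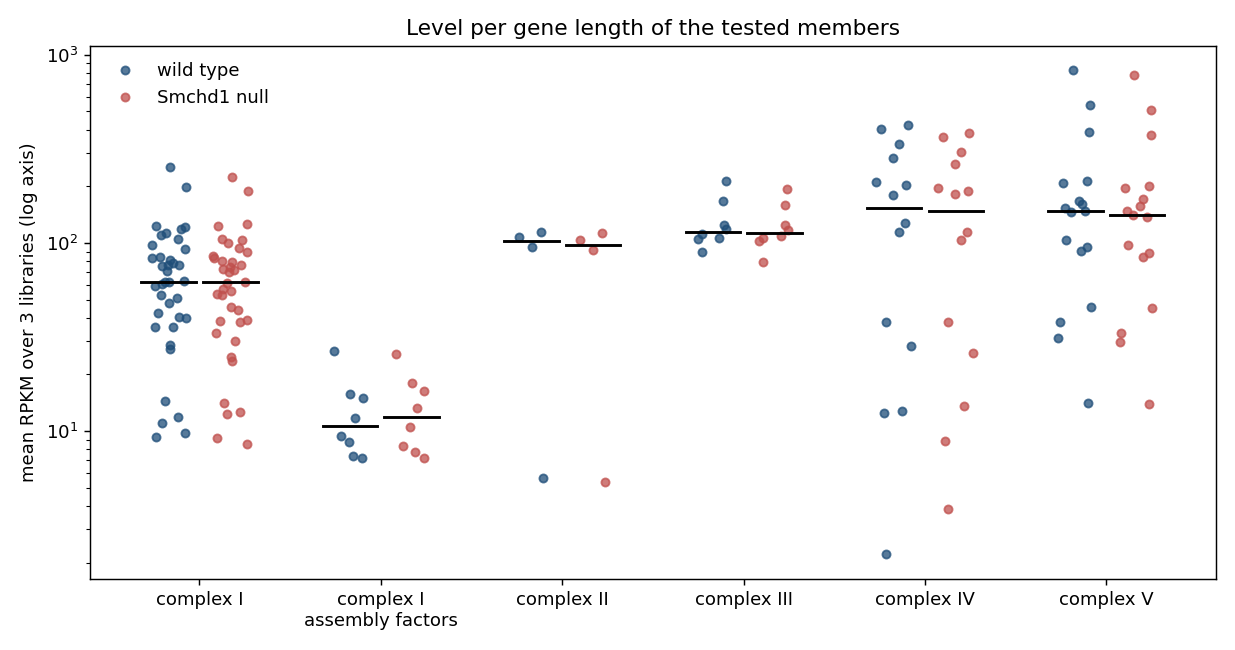
Mean RPKM over 3 libraries (log axis) of each tested member in wild type (blue) and Smchd1 null (red), by complex, with black bars at the medians. The assembly factors sit lowest, with a median of 10.6 RPKM in wild type, and complexes IV and V highest, with medians of 154 and 148 RPKM.

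Some subunits of 1 complex differed widely in level per length. In complex II, Sdha, Sdhb and Sdhc stood at 95.6, 113.9 and 108 RPKM in wild type, while Sdhd, the small membrane anchor of the same enzyme, stood at 5.61 ± 0.67 RPKM. Uqcr11, a small subunit of complex III (chromosome 10, 80402997 to 80406821), had 0, 1 and 1 counts in wild type and 2, 2 and 0 counts in null, and was not tested. The other 8 genes of its complex stood between 89.7 and 214 RPKM in wild type. Many of these genes have close copies in the genome, and how reads that match several genes were counted is not given in the sources used here. In 11 of the 94 members with a GENCODE transcript, over 10% of all 50-base windows of their transcripts were also found in a transcript of another gene. The share was highest for Atp5g2 (36.7%), Uqcrb (25.4%), Cox7c (22.1%) and Ndufs5 (21.7%). The median level of these 11 was 39.7 RPKM in wild type, against 94.0 RPKM for the other 76 tested members with a transcript. For Sdhd no window was shared and for Uqcr11 6.27% were. Cox7a2 also stood low, at 12.5 RPKM in wild type against a median of 154 RPKM in complex IV. No window was shared for Cox7a2, while 13.8% were for Cox7a2l. Ndufs5 was counted at 18.2 ± 2.64 CPM in wild type and its pseudogene record at 39.9 ± 0.22 CPM. Likewise the record of Ndufb4 held 6.56 ± 1.29 CPM while its copies Ndufb4b and Ndufb4c held 16.5 ± 0.99 and 38.4 ± 3.07 CPM (SD, n = 3). Single values of such genes are uncertain. The window measure covers annotated transcripts only and was added after the values were seen.

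In the Cox4, Cox6a, Cox6b, Cox8 and Ndufa4 families the general isoform stood far above the others, while the level of Cox7a1, the muscle isoform described above, was 2.21 RPKM in wild type and 3.84 RPKM in null beside 12.5 and 8.90 RPKM for Cox7a2. Cox4i1 stood at 421 RPKM in wild type, and Cox4i2, the isoform known from lung and low oxygen, at 0.353 ± 0.193 RPKM. Cox6a1 stood at 210 RPKM and the muscle isoform Cox6a2 at 0.174 ± 0.022 RPKM. Cox8a stood at 404 RPKM, the muscle isoform Cox8b at 0.182 ± 0.221 RPKM, and the testis isoform Cox8c at 0 counts in every wild type library. Cox6b2, known from testis, was detected in every library. It was measured at 6.71, 7.5 and 8.93 CPM in wild type and at 6.58, 9.98 and 8.02 CPM in null, with overlap, which made 12.8 RPKM in wild type beside 334 RPKM for Cox6b1. Ndufa4, now counted as a complex IV subunit, stood at 282 RPKM, and its low-oxygen relative Ndufa4l2 at 0.158 ± 0.108 RPKM (SD, n = 3). In null, Cox4i2, Cox6a2, Cox8b, Cox8c and Ndufa4l2 had 0 to 7 counts per library. Cox7b2, a testis relative of Cox7b, had 1 count in 1 wild type library and 0 elsewhere.

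**Figure D5:**
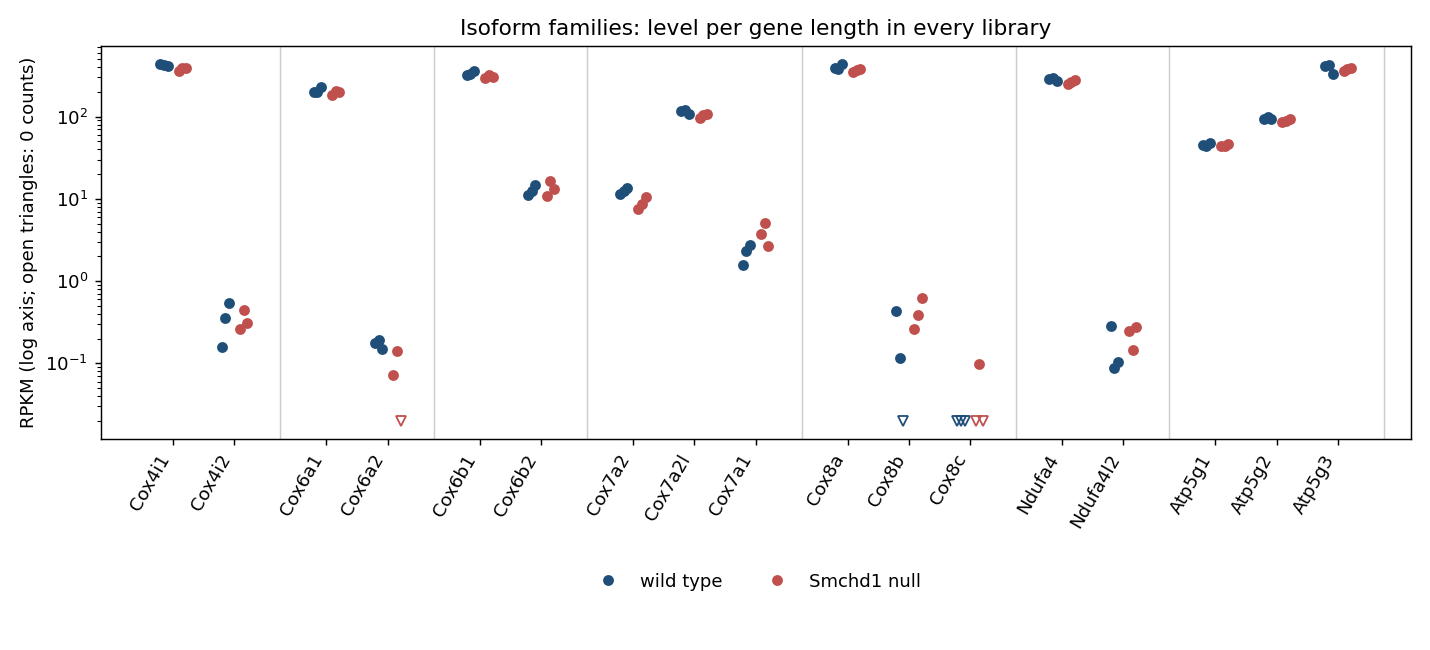
RPKM in every library (log axis) for isoform families, wild type in blue and Smchd1 null in red, with open triangles for libraries with 0 counts. In the Cox4, Cox6a, Cox8 and Ndufa4 families 1 isoform stands above 100 RPKM while the others stay below 1 RPKM.

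The c subunit of the ATP synthase rotor is encoded by Atp5g1, Atp5g2 and Atp5g3, which yield the same mature protein. Their levels in wild type were 45.4 ± 1.73, 95.2 ± 2.35 and 390 ± 49.3 RPKM (SD, n = 3), so Atp5g3 had the highest RNA level. Of the 50-base windows, 11.1% were shared elsewhere for Atp5g1, 36.7% for Atp5g2 and none for Atp5g3. The comparison between the 3 genes is therefore uncertain, and protein was not measured. In null they were 44.9, 88.8 and 375 RPKM. The log2 fold changes were -0.01, -0.10 and -0.06. For Atp5g2 every null library lay below every wild type library, while the other two genes overlapped.

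Promoters of respiratory chain genes are known targets of nuclear respiratory factor 1 (Nrf1), of the ETS factor GABP and of YY1. RefSeq promoter windows (GRCm38.p6, 250 bases before to 50 after the start) were matched for 77 of the 96 members, which gave 82 windows. The Nrf1 motif (GCGCA, then any base, then GCGC), searched on both strands, was found in 20 of 82 windows (24.4%; Wilson 95% interval 16.4% to 34.7%), against 4.60% of all 32851 windows. The GABP core CCGGAAG was found in 19 (23.2%, against 8.86%) and the YY1 motif AAGATGGC in 11 (13.4%, against 2.75%), both on either strand. At least 1 of the 3 motifs was present in 43 windows (52.4%), for which no share over all windows is given. The comparisons with all windows were not matched for base composition or gene level. Among matched members, the Nrf1 motif was found in 6 of 15 complex V genes and in 2 of 3 complex II genes, but in only 1 of 14 complex IV genes. A match is a description of the letters and not a measured binding site.

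The windows below show the Nrf1 motif, in capitals, in 1 gene from each complex that had a match within 120 bases before the start. All are printed 5′ to 3′ on the gene's strand (minus in each case) and end at the base before the start of the gene record, and windows of other starts were not used. Atp5k encodes a small subunit of the membrane part of ATP synthase. Sdha holds 3 matches and the others 1 each.
Ndufa5, complex I, chr6:24527691-24527810: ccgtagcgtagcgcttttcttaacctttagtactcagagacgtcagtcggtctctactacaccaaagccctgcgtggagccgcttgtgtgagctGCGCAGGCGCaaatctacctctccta
Sdha, complex II, chr13:74350241-74350360: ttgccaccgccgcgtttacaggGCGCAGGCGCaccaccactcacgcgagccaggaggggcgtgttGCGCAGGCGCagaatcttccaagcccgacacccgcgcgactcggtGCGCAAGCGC
Cox6a1, complex IV, chr5:115348959-115349078: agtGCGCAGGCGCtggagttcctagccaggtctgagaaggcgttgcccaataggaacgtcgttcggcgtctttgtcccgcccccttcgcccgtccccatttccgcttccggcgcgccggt
Atp5k, complex V, chr5:108434400-108434519: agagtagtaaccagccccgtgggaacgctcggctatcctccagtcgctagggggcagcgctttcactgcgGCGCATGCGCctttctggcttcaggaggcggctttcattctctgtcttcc

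The motif did not separate the members by their difference between the groups. The 19 tested members with the Nrf1 motif had a median log2 fold change of -0.06, from -0.25 to 0.10, and the 55 tested members without it had a median of -0.06, from -0.48 to 0.85. The factors themselves were measured as well. Nrf1 was measured at 63.7 ± 3.68 CPM in wild type and at 56.0 ± 1.83 CPM in null (SD, n = 3), with no overlap, a log2 fold change of -0.19 ± 0.07 (SE; edgeR adjusted p = 0.228). Yy1 stood at 124 ± 4.23 and 112 ± 4.07 CPM, also with no overlap, at -0.15 ± 0.06 (edgeR adjusted p = 0.249). The GABP genes overlapped between the groups, with log2 fold changes of -0.09 for Gabpa, -0.13 for Gabpb1 and 0.04 for Gabpb2. Of the 23 regulators of mitochondrial biogenesis on the list, edgeR called 0. An unadjusted p below 0.05 was reached by 2, both lower in null (Nrf1 and Yy1), against 9.05% of all tested genes lower. The same 2 were those with every null library below wild type, against 10.6% of all tested genes. The median log2 fold change of the 23 was 0.04.

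The 13 subunits encoded in mitochondrial DNA had a median log2 fold change of 0.06, beside -0.06 for the nuclear-encoded members. Of the 13, 8 were above zero, ND3, COX2, COX3, ATP6 and ATP8 lay between -0.25 and -0.10, none was called by edgeR and none had an unadjusted p below 0.05. COX1, the catalytic subunit of complex IV, was the most abundant at 6992 ± 549 CPM in wild type and at 7945 ± 212 CPM in null (SD, n = 3), with every null library above every wild type library (log2 fold change 0.18 ± 0.09, edgeR adjusted p = 0.317). COX3, of the same complex, stood at -0.18 ± 0.11 (adjusted p = 0.378). The difference between the mitochondrial and the nuclear set was not tested. Among 44 tested assembly factors outside the name rule the median was 0.05, close to that of the Ndufaf genes, with 27 above zero and 1 at an unadjusted p below 0.05, Tmem186 (0.24 ± 0.08, edgeR adjusted p = 0.210), a factor for complex I.

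Of the 20 glycolysis genes edgeR called 0. An unadjusted p below 0.05 was reached by 9 of the 20, 8 lower in null and 1 higher, against 9.05% of all tested genes lower and 9.54% higher, and the median log2 fold change was -0.17. Ldha, lactate dehydrogenase A, was measured at 611 ± 46.5 CPM in wild type and at 484 ± 22.6 CPM in null (SD, n = 3; log2 fold change -0.34 ± 0.08, SE; edgeR adjusted p = 0.119). Slc2a1, the glucose transporter GLUT1, stood at 19.5 ± 2.40 and 13.1 ± 2.23 CPM (-0.56 ± 0.14, edgeR adjusted p = 0.137). Both were without overlap between the groups. DESeq2 called 4 genes over all 6 pathway lists, which hold 13, 44, 23, 18, 20 and 21 tested genes. Its share over all genes with an adjusted p was 2.83%. All 4 were of glycolysis: Slc2a1, Ldha and Pgk1 lower and Pfkp higher in null. The 18 citric acid cycle enzymes had a median of -0.04, with 1 at an unadjusted p below 0.05, Idh2 (-0.37 ± 0.15, edgeR adjusted p = 0.256). The 21 outer membrane and import proteins had a median of -0.06, with 3 lower and 1 higher at an unadjusted p below 0.05 and none called by edgeR.

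Markers of some other cell types varied widely among the wild type libraries. The summed level of the oligodendrocyte lineage list was 151 to 391 CPM in wild type and 290 to 331 CPM in null, and that of the fibroblast list was 24.6 to 182 CPM in wild type and 125 to 150 CPM in null. Both lists hold Pdgfra, which was measured at 17.1, 18.3 and 167 CPM in wild type and at 112.6, 128 and 137 CPM in null, so that wild type replicate 3 lay with the null libraries. Of the 12 tested neuron markers 8 had a log2 fold change above zero (median 0.42), and 1, Nefl, was called by edgeR, with 2.56 CPM in null against 0.720 CPM in wild type. Over all tested genes edgeR called 0.507% higher in null. An unadjusted p below 0.05 was reached by 4 of the 12 neuron markers higher and 1 lower in null, against 9.54% and 9.05% of all tested genes. The sum of the neuron list, 1201 to 1249 CPM in wild type against 1115 to 1143 CPM in null, ran the other way and was mostly Map2, at 1084 ± 23.1 CPM in wild type and at 981 ± 16.2 CPM in null (SD, n = 3). Of the 8 astrocyte markers 5 had a log2 fold change above zero (median 0.37), and edgeR called none. An unadjusted p below 0.05 was reached by 2 of them, both lower in null, against 9.05% of all tested genes lower. The astrocyte sum was 457 to 498 CPM in wild type against 425 to 451 CPM in null, again opposite to the median. Microglia, vessel and red cell markers summed to at most 3.03, 7.44 and 1.41 CPM in any library, and 5 of the 10 microglia markers were at 0 throughout. The part of these cell types in the members' values was not tested.

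The calls among the members depended on wild type replicate 3. Without it edgeR called 19 members, 2 higher (Cox7a1 and Ndufab1) and 17 lower in null, that is 19.1% of the members called lower, against 19.4% of all genes then tested. The background was 19.7% for genes called higher, and 2.25% of the members were called so. The members lower in that fit came from complex I (Ndufa2, Ndufa3, Ndufa7, Ndufb5, Ndufb6, Ndufc2, Ndufs6 and Ndufs8), complex III (Uqcrb and Uqcrh), complex IV (Cox4i1, Cox7a2 and Cox7a2l) and complex V (Atp5b, Atp5g3, Atp5h and Atp5mpl). None of the 4 complex II genes and none of the 8 assembly factors was among them. With 19.4% of all genes called lower, an absence in groups this small says little about them. The wild type libraries in that fit have sample numbers in another range than the null libraries. Genotype and number range cannot be told apart in it. Cox7a2 then had a log2 fold change of -0.41 ± 0.14 (SE; adjusted p = 0.0255), Cox4i1 of -0.16 ± 0.05 (0.0152), Uqcrb of -0.21 ± 0.07 (0.0245) and Ndufab1 of 0.47 ± 0.12 (0.00647). With limma-voom and sample quality weights, 2 members were called higher, against 19.3% of all tested genes, and 14 lower, or 15.7% of the members against 17.5%.

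Wild type replicates 1 and 2 have sample numbers in another range than wild type replicate 3 and all null libraries, which are numbered 11 to 14. What these numbers mean is not given in the sources used here. A term for the number range leaves the genotype estimate to wild type replicate 3 against the null libraries. With the number range as a term in the model, 0 members were called by edgeR, against 1.31% of all tested genes, and within the libraries named 11 to 14, with wild type replicate 3 as the lone wild type library, 1 was called: Cox8a, lower in null (log2 fold change -0.26 ± 0.07, SE; adjusted p = 0.0283), against 1.69% of all genes called lower. With that term Cox7a2 stood at -0.62 ± 0.21 (adjusted p = 0.190), while Cox7a1 stood at 0.49 ± 0.52 (0.743) and Ndufab1 at 0.14 ± 0.18 (0.801).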

How the data were processed

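Per the labels' protocols, RNA libraries were made from 1 µg of total RNA with a TruSeq kit that does not mark strand. The authors deposited raw counts per Entrez gene with a gene length; the submitters' processing notes name build mm10, featureCounts, limma 3.22.0, edgeR 3.8.2 and CASAVA 1.8.2, with the aligner, the annotation and the handling of multi-matching reads not given in the sources used here. Symbols were matched for 25275 of 27179 records (93.0%) through RefSeq GRCm38.p6. Besides 3 records named -ps, 2 of the members' pseudogenes by annotation were left out. The main test was edgeR 4.0.16 (R 4.3.3) on the deposited counts: filterByExpr, TMM, a robust quasi-likelihood fit on genotype and Benjamini-Hochberg adjustment over 14207 genes, called below 0.05. It was tested on simulated data. SE is the size of the log2 fold change over the root of F. Alternatives were DESeq2 1.42.0, limma-voom 3.58.1 with quality weights, other scalings and filters, a replicate block, sample names and each library left out. Replicates differed by more than sampling noise. The mean chi-square per gene was 7.85 to 17.4 in pairs without wild type replicate 3 (medians 0.90 to 1.20). In the pairs of wild type replicate 3 with replicates 1 and 2 it was 1752 and 1678 (medians 3.45 and 3.56). The members and lists were chosen with earlier results of these data known. The rule for names took the 4 members with the smallest p in each complex and the isoform families. It also took the members with the highest and lowest RPKM in each complex and the 2 genes with the smallest p in each pathway list. Some genes under this rule, among them Uqcr10, Uqcrc2, Atp5j2 and Atp5o, are not described above. Further genes were picked for naming with their values in view.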

Additional observations from a re-analysis of the deposited data

How the results depend on the processing

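Counting depth limits the members under about 12 CPM, and Cox7a1 rested on 10 to 40 counts per library. Over all genes edgeR called 82; it called 222 with no filter, 28 with at least 1 CPM in every library, 186 with the sample-name term, 376 within the libraries named 11 to 14, and 30 to 5676 when single libraries were left out, the highest without wild type replicate 3; DESeq2 called 401 and limma-voom with weights 5229. The members called (0) became 16 with limma-voom, 1 within libraries 11 to 14 and 0 to 19 without single libraries. The pathway genes called (0) became 4 with DESeq2, 32 with limma-voom, 1 with no filter, 5 with the sample-name term, 9 within libraries 11 to 14, and 0 to 37 without single libraries. The replicate numbers did not pair the libraries (correlations -0.01, 0.03 and -0.04 between same-numbered libraries); with them as a replicate block 54 genes and 0 members were called. The cause of these moves was not tested. The members' median stayed below zero in all 15 alternatives, from -0.10 to -0.03, and the ratios of summed levels kept their direction under both other scalings.

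The number of tested members below zero (74 of 89) was 62 (69.7%) both with the sample-name term and within libraries 11 to 14. The genotype estimate in both rests on wild type replicate 3 against the null libraries, so they are not separate checks. The sign of 20 of the 89 members turned with that term, among them Ndufv1 (0.089), Ndufb6 (0.16), Ndufs8 (0.011), Ndufb4 (0.096), Atp5h (0.083) and Atp5mpl (0.10), and that of 1 to 11 members turned with no filter, the strict filter, other scalings, other tools, the block or a library left out. Of the genes selected by the rule for names, none of them called by edgeR over all 6 libraries, these turned. With the sample-name term and within libraries 11 to 14, the values were 0.12 and 0.12 for Ndufc2, 0.071 and 0.070 for Atp5b, 0.50 and 0.50 for Atp5l, 0.17 and 0.17 for Atp5g3, -0.12 and -0.13 for Cox6b2, 0.061 and 0.059 for Idh2, and 0.0014 and 0.00013 for Pdha1. With limma-voom and with the strict filter, they were 0.0053 and 0.0067 for Sdhb and 0.0020 and 0.0034 for Atp5g1; Cox5b gave 0.014 with the strict filter. Cox5a gave -0.0024 with DESeq2, -0.060 with limma-voom and -0.0010 with RLE scaling. Without single libraries the values ran from -0.059 to 0.033 for Sdhb, -0.22 to 0.12 for Atp5l, -0.079 to 0.046 for Cox5a, -0.087 to 0.087 for Cox5b, -0.065 to 0.24 for Cox6b2, -0.043 to 0.0083 for Atp5g1 and -0.16 to 0.0055 for Atp5g3.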
